A study of Mus musculus with 9 samples.

Results

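The Hippo pathway genes described here are Stk3, Stk4, Sav1, Lats1, Lats2, Nf2, Amot, Amotl2, Yap1 and Wwtr1, which were chosen by name and matched by gene symbol in the count tables. All 10 were found among 53819 rows, and all 10 were among the 12488 genes that passed the filter on low counts. The study asked whether alcohol exposure of the father before conception alters gene expression in the morula, and sequenced total RNA of C57BL/6J mouse embryos from in vitro fertilization (Nakagata protocol, CARD media). Of the 9 libraries, 3 came from morulae of control sires, 3 from morulae of 6% EtOH sires and 3 from morulae of 10% EtOH sires, called control, 6% ethanol and 10% ethanol below. No genotype beyond the strain is given. Neither is the number of embryos or sires in a library, so the p-values describe the scatter among libraries, part of which may be technical.

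Hippo signalling is a kinase cascade that restrains the coactivators YAP1 and WWTR1 (TAZ). The kinases STK3 and STK4, bound to the scaffold SAV1, activate LATS1 and LATS2, which phosphorylate the coactivators and keep them out of the nucleus. In the mouse morula the pathway is known for separating the first lineages: it is active in inner cells, where NF2 and angiomotins act at cell contacts, and inactive in polarized outer cells, where nuclear YAP1 and TEAD4 drive Cdx2 and the trophectoderm.

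Since TEAD proteins carry the output of the pathway, the promoters of its own genes were searched for the TEAD-type motif GGAATG on either strand (CATTCC on the other). Promoter sequences of RefSeq (build GRCm38.p6, 300 bases, 250 of them before the start) were held for 9 of the 10 genes in 12 windows. Stk3 was the gene not matched. The motif was found in windows of 5 of these 9 genes, namely Amotl2, Lats2, Sav1, Wwtr1 and Yap1, and in 6 of the 12 windows. The windows of Wwtr1 overlap each other and hold the same site, 170 and 136 bases before their starts, so they are not separate finds. Of all 32851 windows of that length, 14.7 percent held it. That is a share of windows, and no share of all genes is given beside the 5 of 9 genes. The 250 bases before the start are shown for both coactivators and for Amotl2, whose product binds YAP1, 5′ to 3′ on the strand of the gene, with the motif in capitals.
Yap1: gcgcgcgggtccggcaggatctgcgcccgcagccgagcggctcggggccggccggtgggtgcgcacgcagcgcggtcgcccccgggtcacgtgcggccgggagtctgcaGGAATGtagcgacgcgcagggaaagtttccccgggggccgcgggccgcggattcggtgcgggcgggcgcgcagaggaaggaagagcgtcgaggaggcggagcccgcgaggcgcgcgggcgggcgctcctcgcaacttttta
Wwtr1: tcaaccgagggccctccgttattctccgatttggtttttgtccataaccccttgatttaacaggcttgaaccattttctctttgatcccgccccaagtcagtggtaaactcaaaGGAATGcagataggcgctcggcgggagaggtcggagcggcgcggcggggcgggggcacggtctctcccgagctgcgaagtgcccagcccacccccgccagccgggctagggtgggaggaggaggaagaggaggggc
Amotl2: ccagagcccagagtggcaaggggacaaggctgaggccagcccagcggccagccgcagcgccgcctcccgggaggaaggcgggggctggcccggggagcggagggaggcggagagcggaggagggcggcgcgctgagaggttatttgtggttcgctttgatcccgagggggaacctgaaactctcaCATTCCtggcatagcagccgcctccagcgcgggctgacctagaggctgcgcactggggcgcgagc
The Yap1 stretch lies at chr9:8004597-8004846 on the minus strand, with the first base of the motif 141 bases before the start. The Wwtr1 stretch lies at chr3:57575911-57576160 on the minus strand, with the motif 136 bases before the start. The Amotl2 stretch lies at chr9:102717554-102717803 on the plus strand and holds the motif in reverse orientation, 65 bases before the start. A match of these letters is a description of the sequence, and binding was not measured in these data.

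Library totals ran from 6263465 to 27619281 counts, and the 10 genes held from 778 counts (Sav1) to 272948 counts (Stk4) over the 9 libraries together. In 4 files the header of the count column names the aligner (control 2, 6% ethanol 1, 10% ethanol 1 and 10% ethanol 2), and in 5 it does not. These are called long-header and short-header libraries. What the header form stands for is not given. All 10 morula markers examined, such as Pou5f1, Cdx2 and Krt8, had counts in every group. Their summed CPM (counts scaled to the TMM-normalised size of the library, the unit used throughout) was 1143 to 1919 in control, 813 to 1451 in 6% ethanol and 781 to 1855 in 10% ethanol libraries. By header form it was 1451 to 1919 in the long-header and 781 to 1190.4 in the short-header libraries, without overlap, and its part in the results below was not tested. Summed CPM was at most 2.64 for 5 cumulus and granulosa cell markers and at most 0.105 for 3 sperm markers. The 5 oocyte markers reached at most 26.1 CPM in a library, and 4 primitive endoderm markers summed to 551 to 1522 CPM. Of these 4 markers, 2 or 3 reached 1 CPM in a library, and Sox17 had no count in the 6% ethanol group. A morula library mixes inner and outer cells, so fewer cells of a kind and less RNA per cell cannot be told apart.

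Levels can be compared between genes only per length, and CPM was therefore divided by the kilobases of exon in GENCODE M21. On that scale the coactivator Wwtr1 had the largest median over the 9 libraries, 38.9 CPM per kilobase. Amot followed with 18.09, Yap1 with 18.04 and Stk4 with 17.96 CPM per kilobase, and their ranges overlapped. Amotl2 had a median of 10.9 and Nf2 of 7.79 CPM per kilobase. The kinases and scaffold at the low end were Lats2 with 5.07, Lats1 with 2.30, Stk3 with 0.932 and Sav1 with 0.866 CPM per kilobase. The lowest Wwtr1 library, 27.7 CPM per kilobase, lay above the highest Amot library, 25.4. Every later neighbour in the order overlapped the gene before it over the 9 libraries. Stk4, the MST1 kinase, thus had the larger level of its pair: Stk3, the MST2 kinase, made up 0.0104 to 27.7 percent of the summed per-length level of both.

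**Figure D1:**
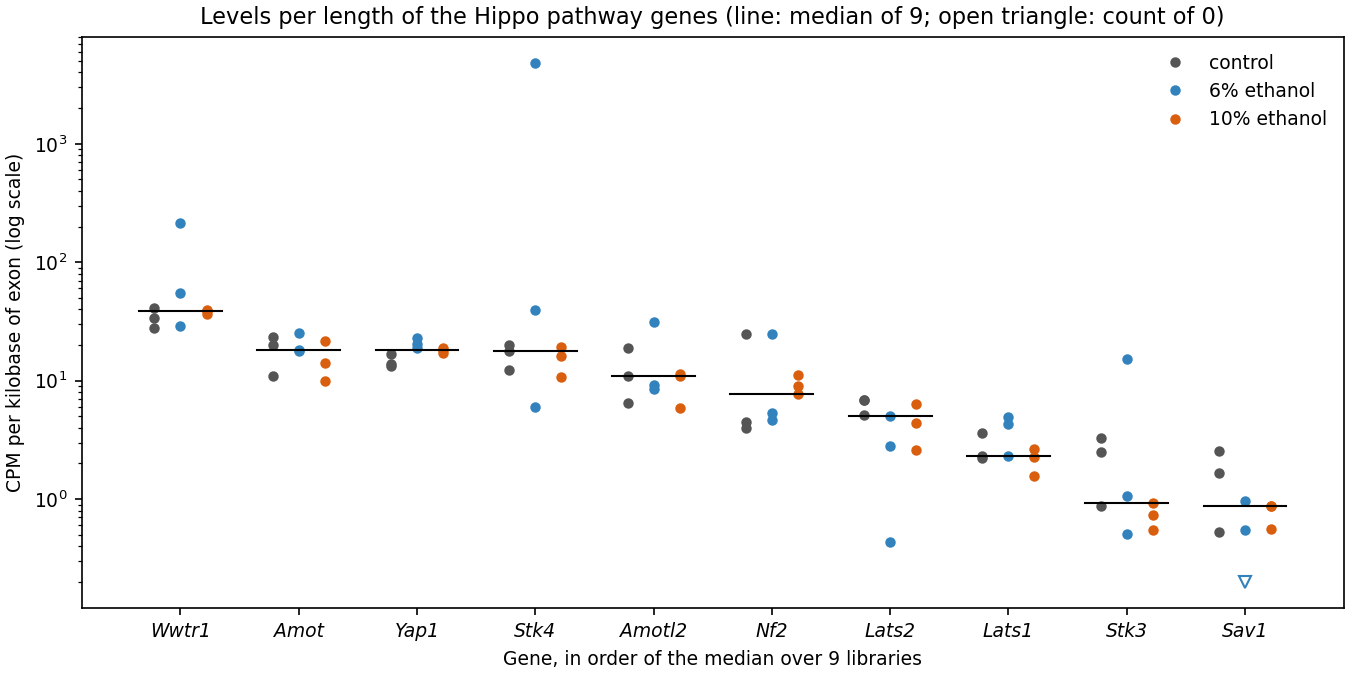
CPM per kilobase of exon (log scale) of the 10 genes in order of their median, with a point for each of the 3 control, 3 6% ethanol and 3 10% ethanol libraries and a line at the median of 9. Wwtr1 stands first at 38.9 and Sav1 last at 0.866, and the single Stk4 point far above the rest is 6% ethanol 3; the open triangle marks the count of 0 of Sav1 in 6% ethanol 2.

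Among the upstream members, Nf2, Amot and Amotl2 overlapped between all groups, and Nf2 varied most within them. Nf2, which encodes Merlin, a tumour suppressor at cell junctions, had 169, 30.5 and 26.97 CPM in control libraries 1 to 3, 36.1, 31.9 and 169.7 CPM in 6% ethanol, and 53.2, 75.7 and 61.0 CPM in 10% ethanol. A single library in the control group and a single one in the 6% group stood about as high as each other, and the rest lay at 75.7 CPM or below. Amot, angiomotin, which holds YAP1 at inner cell contacts, had 167, 92.2 and 196 CPM in control, 149.6, 152 and 213 CPM in 6% ethanol, and 118, 183 and 83.8 CPM in 10% ethanol libraries. Its highest library was only 2.55-fold above its lowest. Amotl2, the related angiomotin-like protein, had 40.3, 119.6 and 69.2 CPM in control, 57.4, 198 and 53.3 CPM in 6% ethanol, and 68.5, 72.2 and 36.7 CPM in 10% ethanol libraries. No group stood apart for any of these genes. Their log2 fold changes lay between -0.80 (Amotl2, 10% against 6% ethanol) and 0.43 (Amotl2, 6% ethanol against control), with standard errors of 0.48 to 0.82.

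Stk4, a kinase at the head of the cascade, had a single library far above all others. It had 72.2, 116 and 105 CPM in control, 232, 35.1 and 28333 CPM in 6% ethanol, and 62.6, 113 and 94.7 CPM in 10% ethanol libraries. The 6% ethanol group thus held both the highest and the lowest values of the 9, and the other 2 groups lay within them. The value in 6% ethanol 3 came from 257325 counts, 2.36 percent of that library, which made Stk4 its second most counted gene. It was 122-fold above the next highest library. The filter on low counts had removed genes seen in too few libraries. Among the 12488 tested genes left, 4 had a library at least 100-fold above their second highest. The other 3 were Hint2 and Gm13191 in 6% ethanol 2 and Arhgap39 in control 2, and their highest values were 288, 239.8 and 247 CPM.

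The fitted log2 fold change of Stk4 was 6.60 ± 1.79 (SE) for 6% ethanol against control and -6.72 ± 1.80 for 10% against 6% ethanol, neither of which passed (edgeR adjusted p = 0.799 and 0.806). Without 6% ethanol 3 the same fold changes were 0.46 and -0.57. For 10% ethanol against control it was -0.12 ± 1.41 (adjusted p = 0.9999), with a sign that turned under 4 alternatives. Among the short-header libraries alone, 2 libraries stood on each side of the 6% comparison, 6% ethanol 3 among them. That comparison gave a log2 fold change of 7.32 and passed (edgeR adjusted p = 0.00236). In the long-header pair the log2 fold change was 0.9997. For 10% against 6% ethanol the fold change was -1.41 in the long-header and -7.22 in the short-header libraries. Over the other 8 libraries Stk4 spanned a 6.61-fold range. The GENCODE M21 annotation places Tomm34 and Gm11455 over part of the span of the Stk4 gene, introns included. Overlap of exons was not examined, and the strand setting of the counting is not given. Their counts in 6% ethanol 3 were 39 and 1.

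The genes most like Stk4 over the 9 libraries were Gm45902 (Pearson's r of log2 CPM 0.961, Spearman's coefficient 0.783), Adtrp (0.952, 0.717) and Avl9 (0.945, 0.383). Each was highest in 6% ethanol 3, at 985 CPM for Gm45902, 229.6 CPM for Adtrp and 246 CPM for Avl9. Without 6% ethanol 2 and 3, the libraries farthest from the Stk4 median, the values of r were 0.525, 0.580 and 0.141, so the likeness rests on those libraries.

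The related kinase Stk3 had its own single high library, another one. It had 15.4, 5.38 and 20.2 CPM in control, 92.8, 6.49 and 3.08 CPM in 6% ethanol, and 3.35, 4.46 and 5.70 CPM in 10% ethanol libraries. The 10% group spanned a narrow range and overlapped the controls only through control 2. Its log2 fold change was -1.60 ± 1.14 for 10% ethanol against control (edgeR adjusted p = 0.9999), and -0.47 in the long-header libraries alone. On library totals alone the groups no longer overlapped, at 3.28 to 6.07 CPM with 10% ethanol and 6.35 to 20.3 CPM in controls. No share of all genes is given for that scaling. Under it the median log2 fold change of all genes for 10% ethanol against control was -0.18. With RLE factors, as with TMM, the Stk3 groups overlapped. The Stk3 fold change was -2.93 ± 1.19 for 10% against 6% ethanol (adjusted p = 0.806), or -0.06 without 6% ethanol 1. It was -4.58 in the long-header libraries, which include 6% ethanol 1, and 0.27 in the short-header libraries, so its sign differed with header form. Sav1, the scaffold that binds both kinases, was the lowest member per length and had 13.3, 8.67 and 2.79 CPM in control, 5.12, 0 and 2.86 CPM in 6% ethanol, and 4.60, 2.96 and 4.56 CPM in 10% ethanol libraries. The count of 0 in 6% ethanol 2 allows up to 0.573 CPM when 3 counts are taken as the limit, which covers counting error only. The groups overlapped, and the log2 fold change of Sav1 for 10% ethanol against control was -1.03 ± 1.32 (adjusted p = 0.9999). It was -0.51 without control 1. In GENCODE M21 the span of the Sav1 gene, introns included, is overlapped on the opposite strand by Atl1, with 0 to 122 counts in a library, and by 3 pseudogenes. Whether their exons overlap was not examined, and whether any of their reads were counted for Sav1 was not tested. The pseudogene Gm19221 had 232 counts in 10% ethanol 2, where Sav1 had 81.

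**Figure D2:**
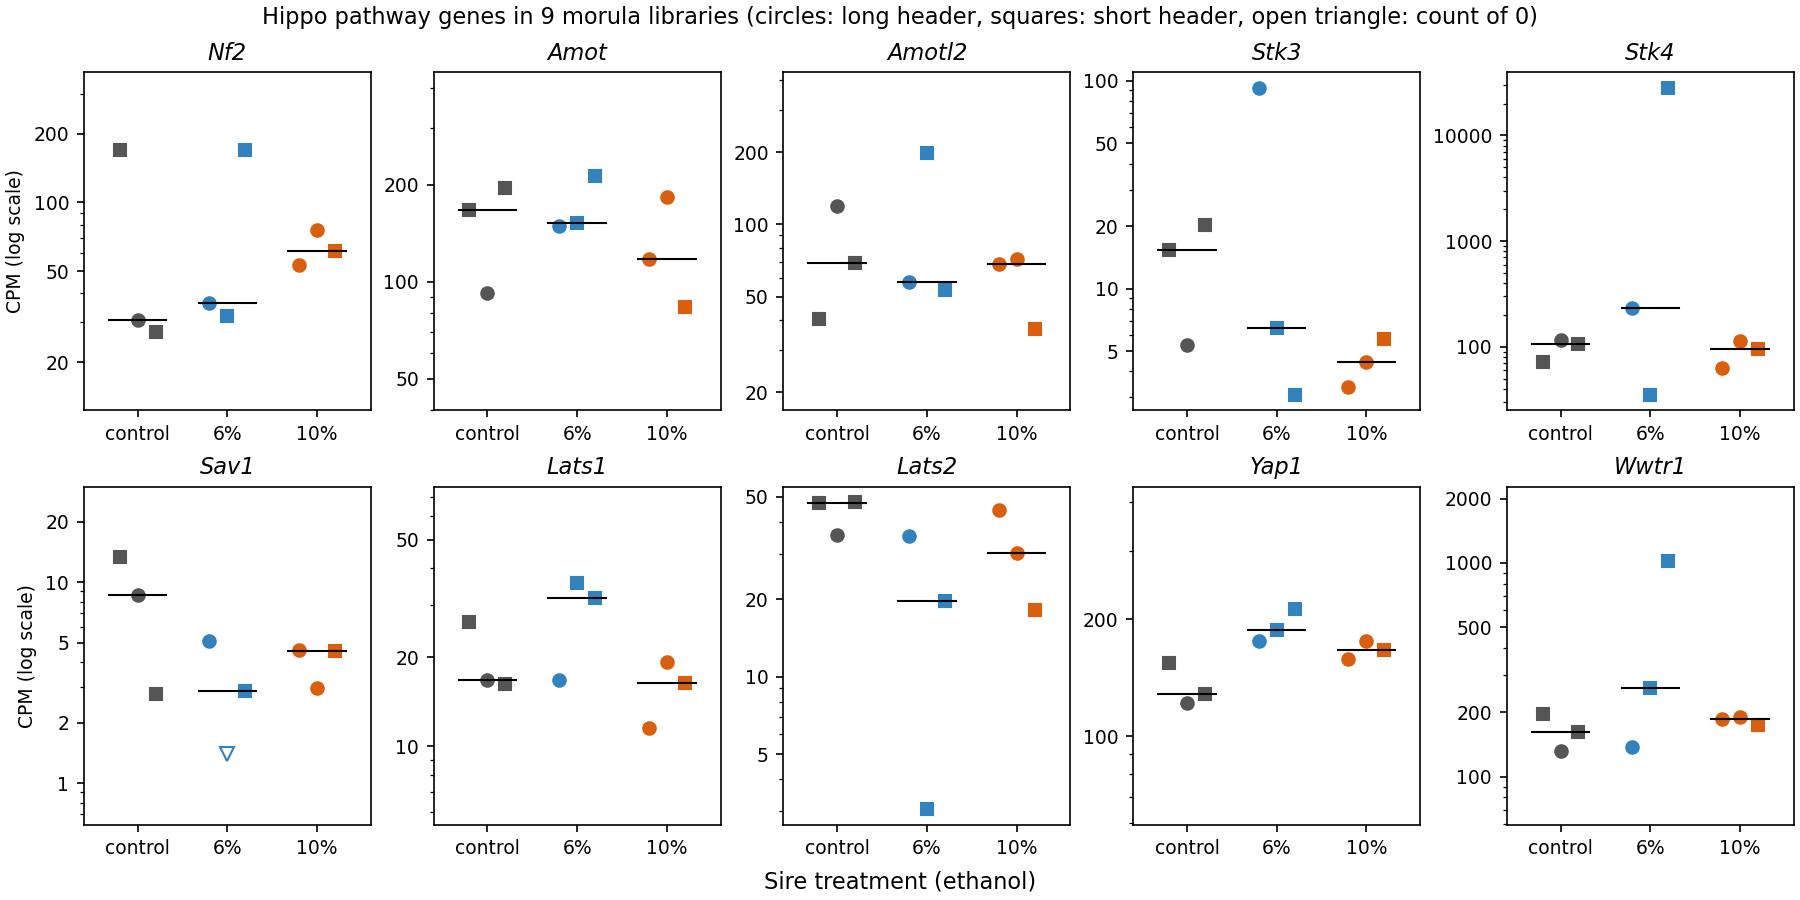
CPM (log scale, a separate axis for each gene) of the 10 Hippo pathway genes in each library by sire treatment, with a line at the median of the 3 libraries; circles are long-header and squares short-header libraries, and the open triangle marks the count of 0 of Sav1. Yap1 spans 122 to 213 CPM, whereas Stk4 reaches 28333 CPM in a single 6% ethanol library and lies between 35.1 and 232 CPM in the other 8.

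The kinases that phosphorylate the coactivators, Lats1 and Lats2, differed in evenness. Lats1 had 26.3, 16.8 and 16.3 CPM in control, 16.8, 35.7 and 31.7 CPM in 6% ethanol, and 11.5, 19.3 and 16.4 CPM in 10% ethanol libraries. All groups overlapped, with a standard deviation of log2 CPM over the 9 libraries of 0.53 beside a median of 1.196 over all tested genes. Its log2 fold changes in the 3 comparisons lay between -0.83 and 0.50. Lats2 had 35.3, 3.06 and 19.7 CPM in 6% ethanol libraries, against 47.4, 35.5 and 47.6 CPM in controls. The 6% group lay below the controls without overlap, with its highest library just under the lowest control, and 4.72 percent of all tested genes lay below in that way. In 10% ethanol libraries Lats2 had 44.2, 30.3 and 18.1 CPM, which overlapped both other groups.

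The log2 fold change of Lats2 for 6% ethanol against control was -1.16 ± 0.80 and did not pass (edgeR adjusted p = 0.837). It was -0.65 without 6% ethanol 2 and -1.95 without 6% ethanol 1, and within header form it was -0.00 in the long-header pair and -2.06 in the short-header libraries. In the 2 short-header libraries of the 6% group, 13.5 and 8.42 percent of the tested genes had no count, against at most 7.30 percent elsewhere. The part of this in the Lats2 values was not tested. Per length, Lats1 made up 91.8 percent of the pair in 6% ethanol 2 and 60.6 percent in 6% ethanol 3. In the other 7 libraries its share was 19.9 to 46.4 percent.

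Yap1, the coactivator that enters the nuclei of outer cells, was the most even member. It had 154, 122 and 128 CPM in control, 176, 187 and 213 CPM in 6% ethanol, and 158, 176 and 167 CPM in 10% ethanol libraries. All 3 libraries of each ethanol group lay above all 3 controls, and the ethanol groups overlapped each other. Of all tested genes 3.35 percent lay above the controls in that way with 6% ethanol and 4.39 percent with 10% ethanol. Its standard deviation of log2 CPM over the 9 libraries was 0.25, and 0.248 percent of all tested genes had a smaller one. Among the 785 genes whose mean log2 CPM lay within 0.5 of its own, 1.27 percent did.

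The Yap1 means were 192 ± 19.0 CPM with 6% ethanol and 135 ± 17.1 CPM in controls (SD, n = 3 each), a log2 fold change of 0.51 ± 0.40 that did not pass (edgeR adjusted p = 0.856). The 95% interval ran from -0.36 to 1.38. With 10% ethanol the mean was 167 ± 9.17 CPM, against the same 135 ± 17.1 CPM in controls (SD, n = 3 each). That log2 fold change was 0.31 ± 0.40, with an interval from -0.56 to 1.18 (adjusted p = 0.9999). Within header form the 6% fold changes were 0.53 in the long-header pair and 0.49 in the short-header libraries. The separation depended on the scaling of libraries. On library totals alone Yap1 had 157 to 183 CPM with 6% ethanol and 129 to 172 CPM in controls, and the groups overlapped. The same scaling put the 10% ethanol libraries at 155 to 178 CPM, which also overlapped the controls.

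Across the 9 libraries Yap1 was most alike to Nufip2, an RNA-binding protein (Pearson's r = 0.943, Spearman's coefficient 0.950), to Zfp239, a zinc finger protein (0.912 and 0.817), and to Mmadhc of cobalamin metabolism (0.910 and 0.867). Without control 2 and 3, the libraries farthest from the Yap1 median, r was 0.871, 0.853 and 0.873. These 3 were the top of 12487 other genes over only 9 libraries, and the values describe these libraries.

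Wwtr1, the other coactivator, had 137, 261 and 1025 CPM in 6% ethanol libraries, against 197, 132 and 163 CPM in controls. Its 10% ethanol libraries had 186, 189 and 174 CPM, a narrow range inside that of the controls. The high value was again in 6% ethanol 3, the library of the Stk4 extreme, at 3.93-fold the next highest library. The groups overlapped, and the log2 fold change of 1.53 ± 0.63 for 6% ethanol against control did not pass (edgeR adjusted p = 0.799, unadjusted p = 0.0318). It was 0.23 without 6% ethanol 3, and 0.06 in the long-header pair. Per length Wwtr1 made up 60.2 to 72.9 percent of the sum of both coactivators in 8 libraries and 90.3 percent in 6% ethanol 3.

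**Figure D3:**
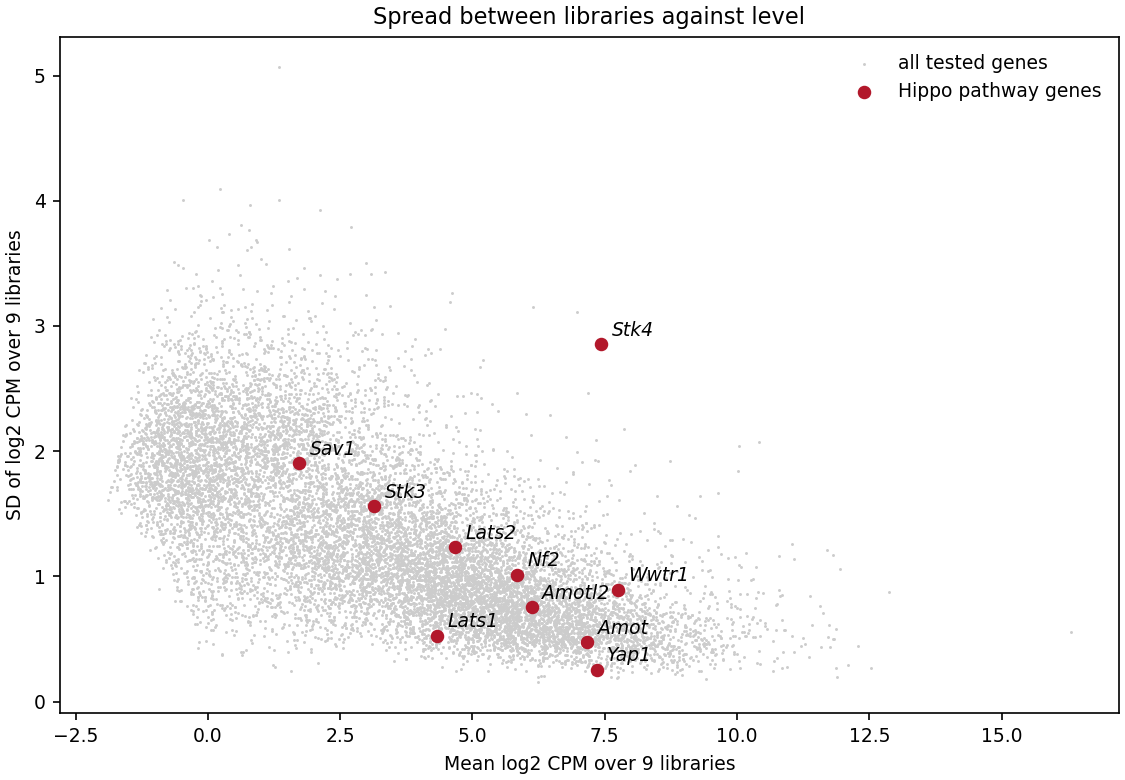
Standard deviation of log2 CPM over the 9 libraries against mean log2 CPM, with a grey point for each of 12488 tested genes and a red point for each of the 10 Hippo pathway genes. Stk4 stands apart at 2.86, with 98.5 percent of tested genes below it, and Yap1 lies at the lower edge at 0.25.

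No Hippo pathway gene passed in any of the 3 comparisons. With edgeR's quasi-likelihood test and Benjamini-Hochberg adjustment over all tested genes, 0 of 10 members passed an adjusted p of 0.05 for 6% ethanol against control, 10% ethanol against control, or 10% against 6% ethanol, where 0 percent of all 12488 genes passed in each. DESeq2, which returned no p for Stk4, and limma voom also called 0 members in each. Over all genes DESeq2 called 0.248 percent for 6% ethanol against control, 0.0801 percent for 10% ethanol against control and 0.272 percent for 10% against 6% ethanol, and limma voom called 0 percent in each. At an unadjusted p under 0.05 there were 2 members at 6% ethanol (Stk4 and Wwtr1), where 6.24 percent of all genes reached it. There were 0 members at 10% ethanol, where 2.14 percent of all genes did. There were 3 for 10% against 6% ethanol (Stk3, Stk4 and Wwtr1), where 5.33 percent did. Each of these members had a single 6% ethanol library well above its next highest library. It was 6% ethanol 3 for Stk4 (28333 CPM) and Wwtr1 (1025 CPM), and 6% ethanol 1 for Stk3 (92.8 CPM). The 2 comparisons with control share the control libraries.

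Of the members, 8 of 10 lay above 0 at 6% ethanol against control, with a median log2 fold change of 0.46, beside 49.5 percent and -0.01 over all tested genes. Without 6% ethanol 3 there were 6 of 10, with a median of 0.29 beside -0.13 over all genes. On library totals alone there were 6 of 10 (median 0.13 beside -0.28 over all genes). In the long-header libraries, 1 on each side, there were 7 of 10 (0.15 beside -0.03). In the short-header libraries there were 6 of 10 (0.26 beside -0.11). The share of all genes above 0 is not given for the alternatives. At 10% ethanol against control 2 of 10 lay above 0 (Yap1 and Wwtr1), with a median of -0.29 beside 47.1 percent and -0.05. There were 5 of 10 in the long-header libraries (median -0.03 beside 0.03 over all genes) and 2 of 10 in the short-header libraries (-0.64 beside -0.19). Control 2 was the only control with a long header, and 10% ethanol 3 the only 10% library with a short one. With header form as a term there were 4 of 10 (-0.15 beside -0.08). Leaving out control 2 gave 4 of 10 (-0.46 beside 0.02 over all genes). The median was -0.16 without 10% ethanol 1, -0.49 without 10% ethanol 2 and -0.17 without 10% ethanol 3. Over all genes it was -0.09, -0.10 and -0.13 in that order. For 10% against 6% ethanol 2 of 10 lay above 0 (Lats2 and Sav1), with a median of -0.61 beside 49.5 percent and -0.02. The median was -0.13 without 6% ethanol 3 and -0.39 without 10% ethanol 3, beside 0.12 and -0.07 over all genes. In the long-header libraries, with 6% ethanol 1 as the only 6% library, there were 5 of 10 (-0.04 beside 0.08 over all genes). In the short-header libraries, with 10% ethanol 3 as the only 10% library, there were 3 of 10 (-0.87 beside -0.04). The groups did not overlap for 1 member above (Yap1) and 1 below (Lats2) at 6% ethanol, where 3.35 and 4.72 percent of all genes did so. They did not overlap for 1 member above (Yap1) and 0 below at 10% ethanol, where 4.39 and 3.67 percent of all genes did so. For 10% against 6% ethanol 0 members stood apart in either direction, where 6.05 percent of all genes lay above and 3.6 percent below. The intervals were wide: 9 of 10 members had a 95% interval more than 2 log2 units across in each comparison.

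**Figure D4:**
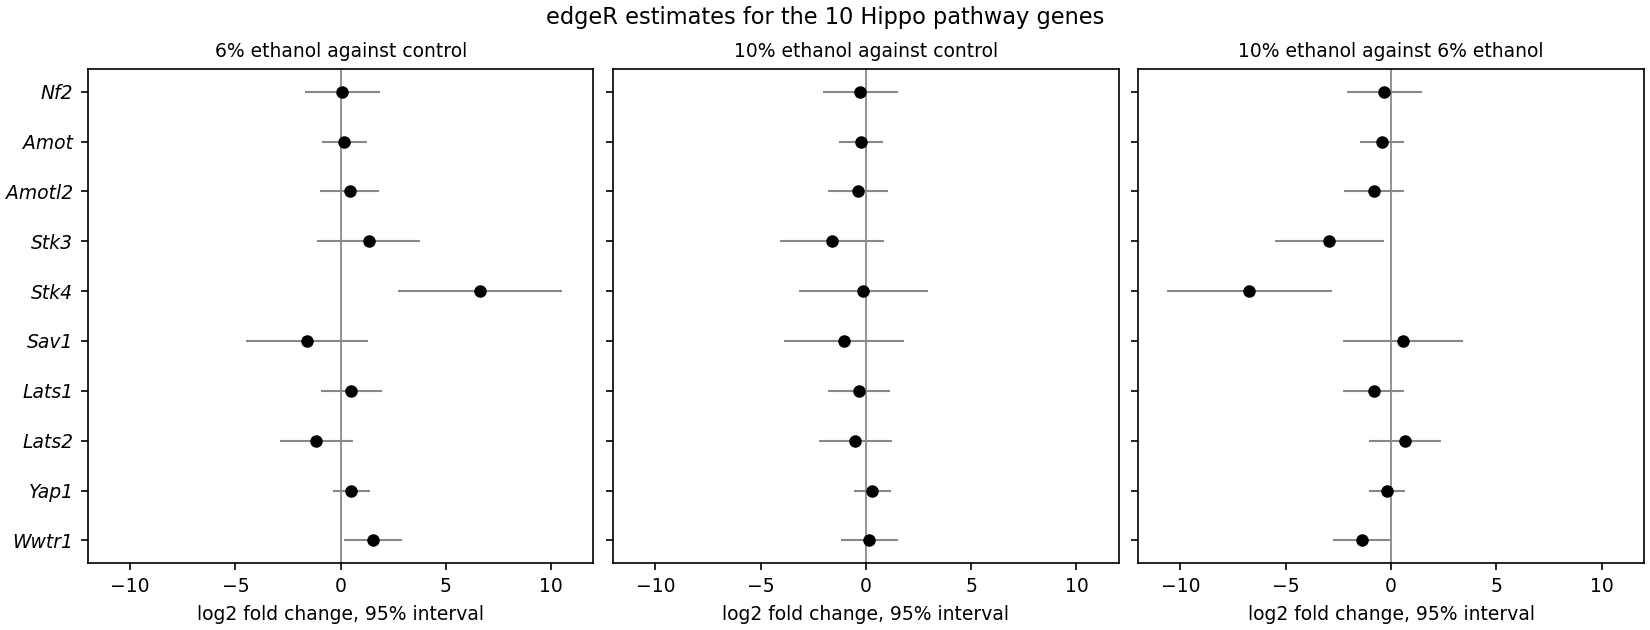
Log2 fold changes (points) with 95% intervals (lines) of the 10 genes in 3 comparisons, from edgeR fitted to all 9 libraries. The Yap1 interval for 6% ethanol against control runs from -0.36 to 1.38, the Stk4 estimates of 6.60 and -6.72 rest on 6% ethanol 3, and no member passed over all genes.

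The wider pathway held no gene called by edgeR either, where 0 percent of all tested genes passed in each comparison. Of 19 core partners and regulators, 17 were tested, and Fat4 and Dchs1, an atypical cadherin pair, were not, with 0 and 7 counts in all. None of the 17 passed in any comparison by edgeR. At 6% ethanol against control 6 of 17 lay above 0 with a median of -0.25, beside 49.5 percent and -0.01 over all tested genes. At 10% ethanol 7 of 17 did with a median of -0.26, beside 47.1 percent and -0.05. Ajuba, a LIM protein that binds LATS kinases, had 105, 8.59 and 53.1 CPM with 6% ethanol, against 299, 216.4 and 41.0 CPM in controls (log2 fold change -1.74 ± 0.83, edgeR adjusted p = 0.802). Rassf1, a partner of the MST kinases, had 1.61, 0 and 0.220 CPM with 6% ethanol, against 2.78, 19.9 and 0.440 CPM in controls, so that a single control stood far above the rest (-3.57 ± 1.71, adjusted p = 0.802).

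At 10% ethanol against control the regulators of smallest p were Rassf1, at -3.31 ± 1.69, and Stk38l, an NDR kinase related to LATS, at -1.21 ± 0.74 (edgeR adjusted p = 0.9999 for both). For 10% against 6% ethanol they were the upstream kinases Taok1, at -1.08 ± 0.56, and Map4k4, at -1.18 ± 0.64 (adjusted p = 0.806 for both). Map4k4 had 14.9, 12.2 and 23.9 CPM with 10% ethanol, against 31.3, 56.1 and 28.7 CPM with 6% ethanol. Those groups did not overlap, as was so below for 3.6 percent of all genes, but did so on library totals alone.

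Other regulators whose groups did not overlap were picked out after their values were seen. The MOB1 proteins, which bind and activate LATS kinases, are encoded by Mob1a and Mob1b. Mob1a had 552, 452 and 446 CPM with 6% ethanol, against 172, 319 and 433 CPM in controls. Mob1b had 117, 117 and 265 CPM with 6% ethanol, against 111, 102 and 58.6 CPM in controls. Both overlapped on library totals alone, as Yap1 did. Wwc1, which encodes KIBRA, a partner of Merlin, had 14.8, 9.14 and 4.33 CPM with 10% ethanol, against 27.5, 15.1 and 24.3 CPM in controls, without overlap under any of the 3 scalings. Wwc2, its relative, had 211, 190.2 and 246 CPM with 10% ethanol, against 307, 279 and 257 CPM with 6% ethanol, and overlapped on library totals alone. Of the 17 tested regulators these made 2 above at 6% ethanol, 1 below at 10% ethanol, and, with Map4k4, 2 below for 10% against 6% ethanol, beside 3.35, 3.67 and 3.6 percent of all tested genes.

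The TEAD partners were led by Tead4, the TEAD factor needed for the trophectoderm. Tead4 had 204, 169.7 and 162 CPM with 10% ethanol, against 137, 111 and 58.2 CPM in controls. The groups did not overlap, as was so above for 4.39 percent of all genes, and the log2 fold change of 0.81 ± 0.47 did not pass (edgeR adjusted p = 0.9999). With 6% ethanol Tead4 had 141, 187 and 112 CPM, which overlapped the controls (0.52 ± 0.47, adjusted p = 0.870). Of the 5 genes in this list 4 were tested, and 0 passed by edgeR, where 0 percent of all genes did. Against control 3 of 4 lay above 0 at 10% ethanol and 2 of 4 at 6% ethanol, beside 47.1 and 49.5 percent of all genes. Tead3 was not tested, with 124 counts in all. Vgll4, a cofactor that competes with YAP1 for TEAD proteins, had -1.18 ± 1.25 at 6% ethanol against control (adjusted p = 0.886) and 0.94 ± 1.24 for 10% against 6% ethanol (adjusted p = 0.878). Tead1 had 0.24 ± 0.79 at 10% ethanol against control (adjusted p = 0.9999), and Tead2 had 1.68 ± 1.53 for 10% against 6% ethanol (adjusted p = 0.829).

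Of 6 target genes 5 were tested, without Ankrd1 (65 counts in all). In any comparison 0 passed by edgeR, where 0 percent of all genes did. Gata3, a trophectoderm factor, had 283, 165 and 5.51 CPM with 6% ethanol, against 63.6, 180.1 and 402 CPM in controls (log2 fold change -0.51 ± 0.99, adjusted p = 0.942). Its 10% ethanol libraries had 257, 397 and 116 CPM, and all groups overlapped (0.77 ± 0.99 for 10% against 6% ethanol, adjusted p = 0.875). Sox2, which YAP1 holds down in outer cells, had at most 6.29 CPM, and its log2 fold change was -1.75 ± 1.73 at 6% ethanol (adjusted p = 0.879), -1.32 ± 1.70 at 10% ethanol (0.9999) and 0.43 ± 1.69 for 10% against 6% ethanol (0.961). Cdx2, the trophectoderm factor downstream of TEAD4, had 75.0, 69.1 and 93.7 CPM in control, 85.3, 10.7 and 159.8 CPM in 6% ethanol, and 135, 126 and 11.3 CPM in 10% ethanol libraries. Each ethanol group held values on both sides of the controls. Ccn1, a matricellular target of YAP1 in other cells, had -0.42 ± 1.06 at 10% ethanol against control (adjusted p = 0.9999).

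The 9 genes of junctions, polarity and actin that feed the pathway were all tested. By edgeR 0 passed, where 0 percent of all genes did. At 6% ethanol against control 3 of 9 lay above 0 with a median of -0.10, beside 49.5 percent and -0.01 over all tested genes. At 10% ethanol 3 of 9 did with a median of -0.07, beside 47.1 percent and -0.05. Prkcz, an atypical protein kinase C of the apical domain, had 38.0, 26.8 and 32.5 CPM with 10% ethanol, against 23.0, 6.68 and 4.07 CPM with 6% ethanol, without overlap (1.52 ± 0.81, adjusted p = 0.806). Of all genes 6.05 percent lay above without overlap in that comparison. Against the controls, with 69.8, 25.4 and 19.6 CPM, the 6% libraries gave -1.76 ± 0.82 (adjusted p = 0.7997). Pard3, a polarity scaffold, had -0.75 ± 0.59 at 6% ethanol (adjusted p = 0.856) and -0.80 ± 0.59 at 10% ethanol (0.9999) against control.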

How the data were processed

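The deposited values are gene counts, 1 file a library, which the authors obtained with featureCounts on GRCm39 (DESeq2 is named as well), per the submitters' processing notes. The long-header files name RNA STAR, per the file headers; tool versions, annotation and strand setting are not given in the sources used here. The smallest chi-square per degree of freedom between any pair of libraries was 116, so none was taken as a repeat deposit.

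The members, lists and alternatives were chosen with earlier results of these data known. The 12488 genes passing edgeR's filterByExpr were scaled with TMM and fitted with a quasi-likelihood model of 3 groups over all 9 libraries. Benjamini-Hochberg adjustment ran across the whole set, with 0.05 as the threshold. Standard errors came from the fold change and its F statistic, and log2 CPM used a prior count of 2. Fold changes are described singly for members whose groups did not overlap, the 2 members of smallest p, and Stk4, and for the 2 genes of smallest p of each other list, of which 2 results of the junction, polarity and actin list are not reported here. Likeness named the 3 genes of largest Pearson's r, and values of Cdx2 and of regulators whose groups did not overlap were added after they were seen. Alternatives were RLE scaling, library totals alone, a table without Stk4, looser and stricter filters, DESeq2, limma voom (quality weights), fits of the compared groups only, header form as a term or alone, a threshold of 0.1, and leaving out single libraries. Counting members above 0 under these alternatives, and overlap and the highest library under other scalings, was added after the data were seen. The fit was run on simulated data for 6% ethanol against control, with 50 genes changed at each size. It recovered 5 of 50 at 4-fold, 30 at 16-fold, 44 at 64-fold and 50 at 256-fold. Of 136 calls 7 were false. The changed genes had a mean of at least 5 CPM, counts were drawn with the fitted dispersion of each gene, and no single-library extreme was added. The recovery therefore does not cover changes carried by a single library, or genes below that level. Exon lengths (GENCODE M21) and promoters (RefSeq, GRCm38.p6) are of another build than the counts. R 4.3.3 was used with edgeR 4.0.16, limma 3.58.1 and DESeq2 1.42.0. Without molecular identifiers, limits from counts cover counting error only.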

Additional observations from a re-analysis of the deposited data

How the results depend on the processing

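The call of 0 Hippo pathway genes held in 62 of the 63 combinations of comparison and alternative. The exception was 6% ethanol against control in the short-header libraries alone, with 1 member called (Stk4), where 48 of 14316 genes passed. DESeq2 returned no p for Stk4, and the table without Stk4 did not hold it, so it could not be called in either. Outside DESeq2 and the fits within 1 header form, no alternative called any tested gene. The count of 0 members was fixed there and says nothing about the members in particular. Over all genes DESeq2 called 31, 10 and 34 of 12488 for 6% ethanol against control, 10% ethanol against control and 10% against 6% ethanol, where edgeR called 0 in each. Of 196 recomputed fold changes of the members described singly, 190 kept their direction and their side of the threshold. The DESeq2 fold changes of Stk4, which have no p, were counted as not passing. For Stk4 at 10% ethanol against control the sign turned with header form as a term (0.095) and in the short-header libraries alone (0.091). Leaving out 1 library gave -0.32 to 0.094 there, above 0 without control 2 (0.035) and without 10% ethanol 1 (0.094). For Stk3 at 10% against 6% ethanol it turned in the short-header libraries alone (0.27), which lack 6% ethanol 1. The causes were not tested. Library totals alone moved the median of all genes to -0.28, -0.18 and 0.13 log2 units in the 3 comparisons in that order, and Yap1 then no longer stood apart from the controls. With RLE factors the 10% ethanol libraries of Yap1 lay below those of 6% ethanol, at 156 to 172 CPM against 174 to 213 CPM. The shares of all genes without overlap are on TMM-scaled values, and none is given for RLE factors. No paired analysis was possible because replicate numbers were given in accession order. Of the members Sav1 had the fewest counts, 778 over all libraries.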

Other observations

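On TMM-scaled values the highest of the 9 libraries belonged to the 6% ethanol group for 8 of the 10 members, beside 40.6 percent of all tested genes. For 5 members (Stk4, Nf2, Amot, Yap1 and Wwtr1) it was 6% ethanol 3, which was the highest library for 15.7 percent of all tested genes. None of the 10 had its highest value in the 10% ethanol group, which held it for 26.2 percent of all genes. These counts depended on the scaling. With RLE factors 7 members were highest in the 6% ethanol group and 4 in 6% ethanol 3, beside 41.2 and 15.5 percent of all tested genes. On library totals alone 6 were highest in that group and 2 (Stk4 and Wwtr1) in that library, beside 33.2 and 11.7 percent. No test was run on this count.

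Among the genes that passed the filter, values at least 10-fold above the second highest library occurred in 146 of 12488. Of these 47 were in 6% ethanol 2 and 33 in 6% ethanol 3, with 3 to 18 genes in each of the other 7 libraries. Stk4 is one of the 33.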
